A study of Mus musculus with 6 samples.

Results

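The comparison described here sets mouse neural progenitor cells (NPCs) after 48 h of auxin against the same cells after 24 h of auxin, across all genes. Auxin, a plant hormone, was present on both sides, so the comparison is of a longer with a shorter exposure and not of treated with untreated cells. The members are 4 of the series' 6 libraries, chosen by their titles: clone 30 and clone 31 at 24 h and the same clones at 48 h of auxin at 500 uM, with n = 2 per group. The other 2 libraries are the same clones with no auxin, and their levels are given as a reference. All 6 come from NPCs derived from mouse embryonic stem cells that are a BL/6J x CAST-EiJ hybrid, carry a degron on SPEN (labelled SPEN-AID), a tag that marks the protein for breakdown once auxin is added, and were kept in N2B27 supplemented with 10 ng/ml of EGF and of FGF. Each clone is a single subclone. No auxin-treated library without the degron is analysed here, so effects of auxin itself and of SPEN loss cannot be told apart. The labels match no untreated library to 24 h or to 48 h, so length of exposure and time in culture cannot be told apart either.

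NPCs divide in culture because EGF and FGF act through the kinase ERK, which keeps D-type cyclins and the growth regulator Myc active. Cyclins then release the E2F factors that switch on genes for DNA replication, while Myc drives the making of ribosomes. Notch signalling and Sox factors hold the cells in the progenitor state, from which neurons, astrocytes and oligodendrocytes can arise. SPEN itself binds Xist RNA and represses genes on the inactive X chromosome, and with RBPJ it holds Notch targets down.

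Between 24 h and 48 h 4185 of 16007 tested genes passed in edgeR's quasi-likelihood test with the clone as a block, at a Benjamini-Hochberg adjusted p of 0.05. That is 26.1% of the genes tested, with 1961 higher (12.3%) and 2224 lower (13.9%) at 48 h. Among them 859 were higher and 499 lower by at least 2-fold, and 183 were higher and 63 lower by at least 4-fold. The genes that fell included outputs of ERK signalling, D-type and E-type cyclins, replication genes and ribosome assembly factors, and those that rose included Sox and Notch genes and markers of glial cells. Of the called genes 4184 moved the same way in both clones, against 12753 of all tested genes (79.7%), and a test with the clone as a block calls genes whose change is alike in the clones. With upper-quartile scaling the split was 2549 higher (59.6% of calls against 46.9%) and 1726 lower, and the median of all genes shifted from 0.03 to 0.11 on the log2 scale. On treatment group alone, without the clone, edgeR called 0 genes (3997 at an unadjusted p under 0.05) and DESeq2 called 2530. The blocked count was 0 without the 24 h library of clone 30 (3507 at an unadjusted p under 0.05, and 730 called by DESeq2), 3 when that of clone 31 was left out (557 in DESeq2) and 7449 when the 48 h library of clone 30 was.

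**Figure D1:**
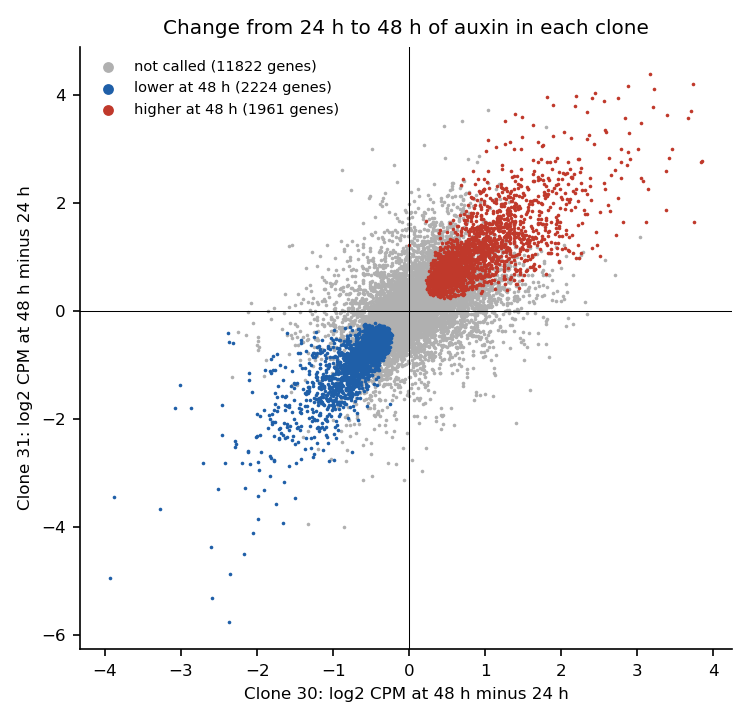
Each point is 1 of 16007 tested genes, with the difference in log2 CPM between 48 h and 24 h in clone 30 on the x axis and in clone 31 on the y axis, coloured by the call. The 4185 called genes lie at lower left and upper right with 1 exception, and uncalled genes spread in all directions.

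Total counts ran from 39637361 to 43008978 at 24 h, from 27628297 to 29668494 at 48 h, and were 24603816 and 40257256 untreated, so the 48 h libraries were shallower than the 24 h libraries. A floor of 3 counts corresponds to 0.0757 and 0.0698 CPM at 24 h and 0.101 and 0.109 CPM at 48 h. On the leading components of log2 CPM (47.3% and 37.2% of variance) the 48 h library of each clone lay apart from that clone's other libraries. The labels give no batch and do not say whether the libraries came from separate cultures, so p-values measure only the spread between these libraries. In bulk RNA fewer cells of a type and less RNA per cell cannot be told apart. The label of the cells was checked on NPC markers: Nes (Nestin), Vim, Fabp7, Sox2 and Olig2 stood at 192 CPM or more in all 6 libraries, while Sox1 and Nr2e1 stood at or under 0.0803 CPM. Below, paired values are for clone 30 and then clone 31, CPM is counts scaled to library size after TMM normalization, ± is the standard error of a log2 change, a single number in parentheses is a log2 change from 24 h to 48 h, and adjusted p is from edgeR with the clone as a block.

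Falls were large among feedback genes of the EGF and FGF pathways, which ERK switches on and whose products restrain it. Of 16 listed genes 15 were tested, 9 fell and 0 rose (median log2 change -0.99, against 0.03 over all genes tested). The share called was 60%, against 26.1% of all genes. Spry4, a Sprouty inhibitor of receptor signalling, stood at 309 and 377 CPM at 24 h and 68.3 and 16.8 CPM at 48 h, after 158 and 384 CPM untreated. Both 48 h libraries lay far below the other 4, with clone 31 the lowest (log2 change -3.03 ± 0.75, adjusted p = 0.0362). The phosphatase gene Dusp6, which removes phosphate from ERK, went from 665 and 599 CPM to 209.7 and 39.5 CPM. Its 48 h values again lay below every other library (untreated 409 and 551 CPM), and it fell by 2.56 ± 0.67 (adjusted p = 0.041). Spry1 fell by 2.30 ± 0.55, from 165 and 195 CPM to 58.4 and 17.8 CPM. Smaller falls were those of Etv4 (log2 change -1.03 ± 0.18) and Etv5 (log2 change -0.99 ± 0.25), transcription factors of the FGF response, and of the Ras pathway inhibitors Spred1 (log2 change -0.68 ± 0.16) and Spred2 (log2 change -0.55 ± 0.11). Spry2 had a change of -1.04 that did not pass (adjusted p = 0.0569), and the ERK-responsive Phlda1, Etv1 and Errfi1 lay at 0.21, 0.12 and 0.11. The list's median was -0.57 in clone 30 and -1.36 in clone 31.

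The receptors and ligands of the same pathway did not share 1 direction. Of 14 tested 5 rose and 2 fell, 50% called against 26.1% of all genes (median 0.17, from 0.125 to 0.38 under the other settings). The receptor gene Egfr went from 391 and 375 CPM to 611 and 703 CPM, higher in both clones (log2 change 0.78 ± 0.12, adjusted p = 0.0164). Fgfr2 rose from 34.7 and 26.6 CPM to 76.3 and 110.3 CPM and Fgfr3 from 147 and 196 CPM to 323 and 465 CPM. Erbb4, a neuregulin receptor, stood at 19.9 and 8.05 CPM untreated, 7.23 and 3.39 CPM at 24 h and 23.4 and 13.9 CPM at 48 h (log2 change 1.86 ± 0.18), so that 24 h was its lowest time in both clones. The ligand gene Hbegf fell from 68.9 and 42.1 CPM to 22.6 and 8.29 CPM (log2 change -1.92 ± 0.27) and Fgf1 from 321 and 270.0 CPM to 176 and 127 CPM (log2 change -0.97 ± 0.14). Fgfr1 had -0.25 (adjusted p = 0.0941) and Erbb2 0.041 (adjusted p = 0.833).

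Immediate early genes, which growth signals and neuronal activity switch on within minutes, split. Of 18 listed genes 16 were tested, 6 fell, 1 rose and 9 were not called (median -0.15, between -0.67 and 0.04 under the other settings). That is 43.8% called, against 26.1% of all genes. The AP-1 component gene Jun fell from 216 and 232 CPM to 90.1 and 63.3 CPM (log2 change -1.54 ± 0.25), and Junb from 14.3 and 9.13 CPM to 7.05 and 2.71 CPM. The zinc finger gene Egr1 went from 305 and 216 CPM to 159.9 and 84.1 CPM (log2 change -1.14 ± 0.13). All 3 had 48 h values below both 24 h values. Maff fell by 1.68 ± 0.17 and Ier2 fell by 0.87 ± 0.24. Fosb alone rose, from 1.03 and 0.688 CPM to 4.04 and 1.73 CPM (log2 change 1.69 ± 0.27). Fos itself (0.44, adjusted p = 0.336), Nr4a1 (0.25) and Egr3 (0.067) were not called.

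**Figure D2:**
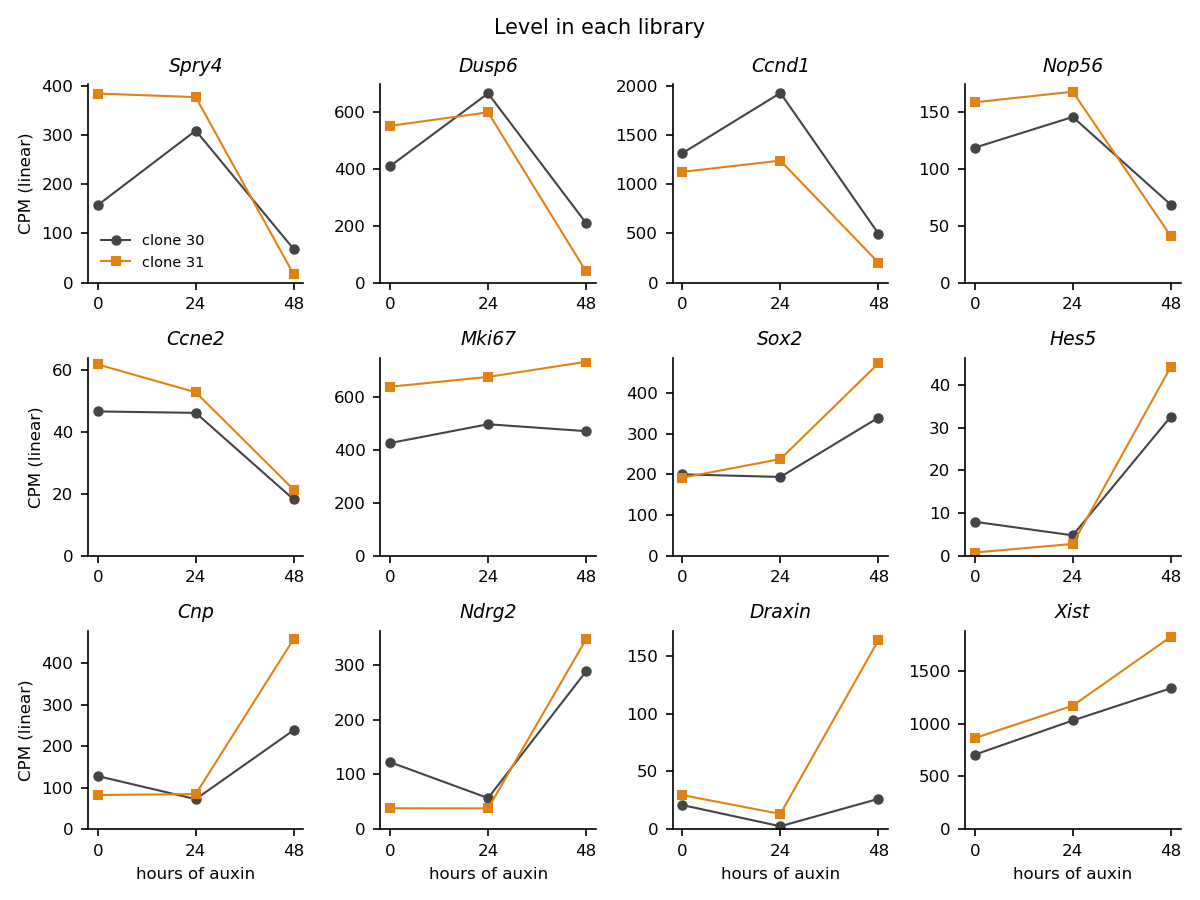
Level of 12 genes in CPM (y axes, linear and starting at 0) against hours of auxin (x axes, with 0 for untreated), 1 line per clone. Spry4, Dusp6, Ccnd1, Nop56 and Ccne2 are lowest at 48 h in both clones, Sox2, Hes5, Cnp, Ndrg2 and Xist are highest there, and Mki67 stays between 426 and 733 CPM.

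Genes for the making of ribosomes fell together. Of 16 listed genes of the Myc and ribosome biogenesis list 14 fell and 0 rose, 87.5% called against 26.1% of all genes. The median was -1.52 (range over the other settings -2.07 to -1.05). Myc itself stood at 186 and 208 CPM at 24 h and 73.6 and 13.6 CPM at 48 h, after 108 and 169 CPM untreated. Its 48 h values were below all others but far apart between the clones, and the log2 change -2.33 ± 0.72 did not pass (adjusted p = 0.062). Nop56 and Nop58, core proteins of the particles that modify ribosomal RNA, went from 145 and 167 CPM to 68.5 and 40.9 CPM and from 142 and 152 CPM to 61.4 and 37.7 CPM. Both were lower in both clones, with log2 changes -1.52 ± 0.27 and -1.58 ± 0.25 (adjusted p = 0.0187 and 0.017). Gnl3 (nucleostemin) fell by 1.86 ± 0.39, the RNA polymerase I subunit gene Polr1b fell by 1.77 ± 0.34, the processing factor gene Rrp12 fell by 1.67 ± 0.37, and Dkc1, which encodes the pseudouridine synthase dyskerin, fell by 1.53 ± 0.22. The abundant nucleolar genes Ncl and Fbl (fibrillarin) had smaller log2 changes, -0.67 ± 0.11 and -0.89 ± 0.11, and Npm1 was not called (-0.24, adjusted p = 0.136).

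Families taken by gene symbol, chosen after their values were seen, cover other parts of the protein-making machinery. Of 20 cytosolic aminoacyl-tRNA synthetase genes, whose products load amino acids onto tRNA, 17 fell and 0 rose (median -0.77). Among them Vars went from 186 and 266 CPM to 94.2 and 102 CPM and Iars from 156 and 225 CPM to 79.2 and 77.9 CPM. Of 46 translation initiation factor genes 21 fell and 0 rose (median -0.27), with Eif1a at log2 change -1.59 ± 0.32 and the cap-binding Eif4e at log2 change -0.72 ± 0.11. Of 5 RNA polymerase I subunit genes 4 fell and 0 rose. In the order given, the shares called of these families were 85%, 45.7% and 80%, against 26.1% of all genes. Of 77 mitochondrial ribosomal protein genes 20 fell and 0 rose (median -0.19), and of 47 proteasome subunit and assembly factor genes 13 fell and 0 rose (median -0.21). The shares called, 26.0% and 27.7%, stand beside 26.1% of all genes called in either direction and 13.9% called lower. With upper-quartile scaling the medians were -0.11 and -0.13. The 76 cytosolic ribosomal protein genes had 0 calls in edgeR (1 at an unadjusted p under 0.05) and 0 in DESeq2 with the block, with a median of 0.13 (between -0.05 and 0.32 under the other settings). Many of those genes have processed pseudogenes, between which reads could be split.

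Stress and nutrient genes fell beside them. Of 16 genes of the amino acid and endoplasmic reticulum stress response 8 fell and 0 rose, 50% called against 26.1% of all genes (median -0.52). The regulator gene Atf4 went from 148 and 203 CPM to 87.9 and 75.5 CPM, below both untreated values (131 and 211 CPM), and fell by 1.07 ± 0.21. Its target Asns, asparagine synthetase, fell by 0.93 ± 0.10 within each clone, although the libraries overlapped between the clones (64.7 and 159.8 CPM against 37.9 and 75.5 CPM). The chaperone gene Hspa5 fell by 0.49 ± 0.10 and Xbp1 fell by 0.93 ± 0.14, whereas Ddit3 (0.084) and the serine synthesis genes Psat1 (-0.002) and Phgdh (0.21) were not called. The cationic amino acid transporter gene Slc7a1, among the 20 largest falls, went from 124 and 233 CPM to 31.3 and 30.3 CPM (log2 change -2.42 ± 0.30).

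In the cell cycle lists called falls were frequent among S-phase genes and rare among mitosis genes, a contrast of lists that was not tested. Of 19 tested G1 genes 8 fell and 3 rose, 57.9% called against 26.1% of all genes. Ccnd1 (cyclin D1, which couples growth signals to the cycle) stood at 1924 and 1238 CPM at 24 h and 498 and 203 CPM at 48 h, with 1314 and 1124 CPM untreated. Its 48 h values were the lowest of the 6 libraries and it fell by 2.25 ± 0.26 (adjusted p = 0.0162). Ccnd2 fell by 1.63 ± 0.25 and Ccnd3 fell by 0.59 ± 0.091. E2f1, E2f2 and E2f3, activators of replication genes, fell, with log2 changes -1.05 ± 0.11, -0.84 ± 0.13 and -0.79 ± 0.16. The CDK inhibitor gene Cdkn1b (p27) rose from 98.2 and 139 CPM to 137 and 220.3 CPM, higher in both clones (log2 change 0.57 ± 0.093) with overlap between the clones, while Cdkn1a (p21), also a p53 target, fell from 759.6 and 509 CPM to 437 and 319 CPM (log2 change -0.73 ± 0.10). The pocket protein genes Rb1 (log2 change 0.59 ± 0.16) and Rbl2 (log2 change 0.40 ± 0.10) rose and Rbl1 fell (log2 change -0.45 ± 0.10). Cdk4 (0.016) and Cdk6 (-0.25) were not called.

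Of 22 S-phase and replication licensing genes 20 fell and 0 rose (90.9%, median -0.70, with -0.62 in clone 30 and -0.84 in clone 31). Cdc6, which loads the replicative helicase, went from 36.1 and 55.8 CPM to 15.5 and 19.1 CPM (log2 change -1.38 ± 0.13), and the licensing factor gene Cdt1 from 45.9 and 67.6 CPM to 22.7 and 29.3 CPM (log2 change -1.11 ± 0.10). Orc1, a subunit of the origin recognition complex, went from 11.2 and 14.8 CPM to 5.5 and 5.54 CPM. In these 3 genes both 48 h libraries lay below the other 4. The helicase subunit genes Mcm2 to Mcm7 all fell, with log2 changes from -1.03 ± 0.12 (Mcm3) to -0.61 ± 0.12 (Mcm7), among them Mcm5 (-0.88 ± 0.11) and Mcm6 (-0.69 ± 0.11). The E-type cyclin genes Ccne1 and Ccne2, whose products start S phase, had log2 changes of -1.16 ± 0.15 and -1.32 ± 0.11. The exceptions were Rrm1 (-0.22, adjusted p = 0.138) and Gins1 (-0.28, adjusted p = 0.169). Of 18 mitosis genes 1 fell (Plk1, log2 change -0.34 ± 0.095, adjusted p = 0.0484) and 0 rose. That share of 5.56% lies below the 26.1% of all genes called and the 13.9% called lower. Of the 18, 14 had a log2 change below 0 (median -0.16, and -0.077 with upper-quartile scaling). Mki67, which encodes the proliferation marker Ki-67, stood at 497 and 676 CPM at 24 h and 471 and 733 CPM at 48 h (0.019, adjusted p = 0.902), and Ccnb1, the cyclin of mitotic entry, at 158 and 205 CPM and then 148 and 191 CPM.

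**Figure D3:**
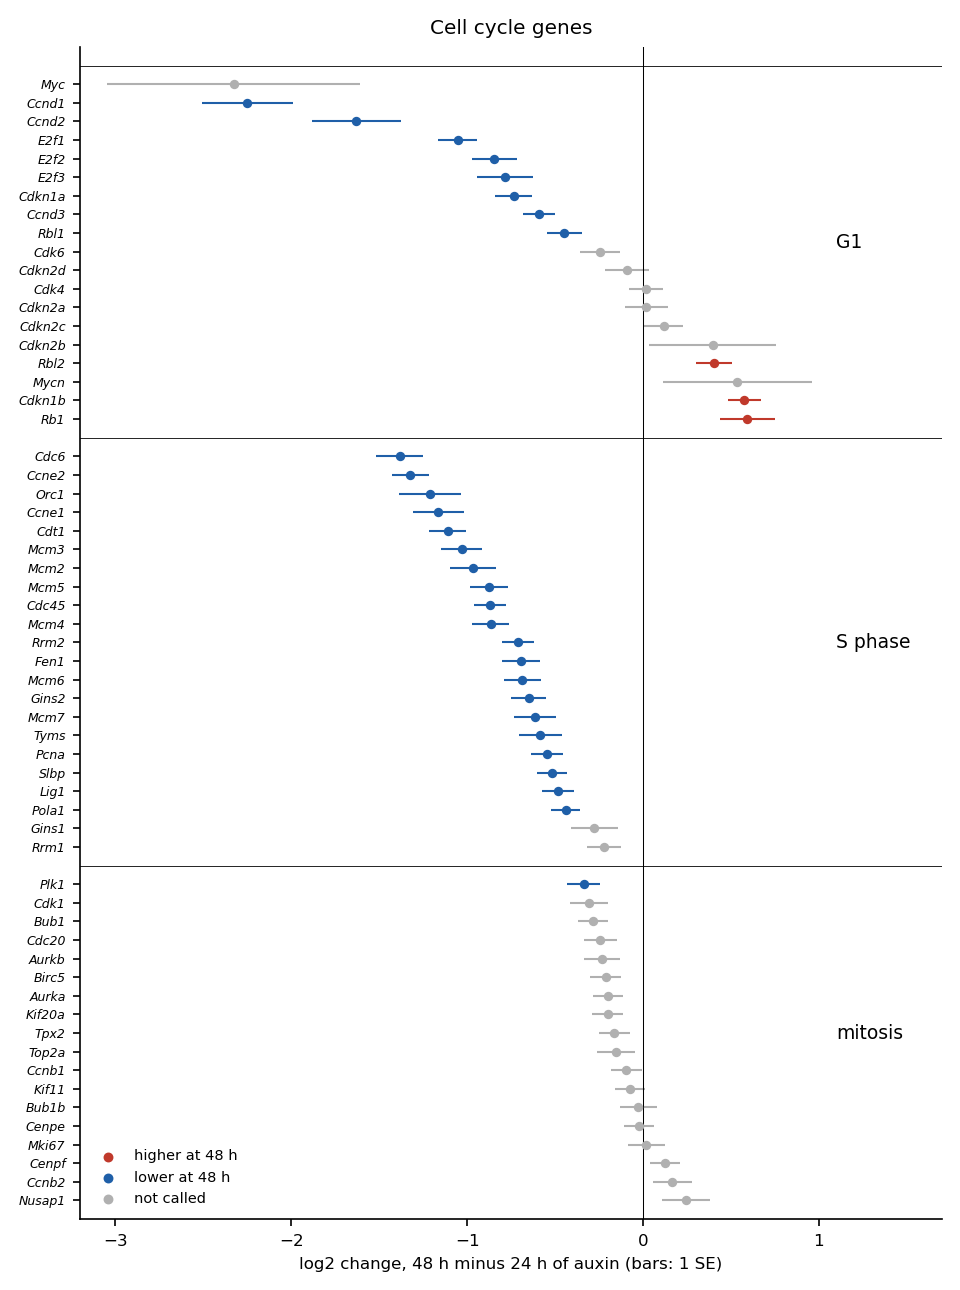
The log2 change from 24 h to 48 h (x axis) of every tested gene of the G1, S phase and mitosis lists, with bars of 1 SE, coloured by the call. In the S phase list 20 of 22 genes are called lower, and in the mitosis list 1 of 18.

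The promoters of 3 replication genes are shown because they hold E2F sites, the DNA letters through which E2F factors bind such genes. RefSeq sequences on GRCm38.p6 were matched by symbol for 18 of the 22 genes, and the 250 bases before the start site were searched on both strands for TTTCGCGC or TTTGGCGC. A site was found in 4 of the 18 promoters (22.2%), against 142 of 11202 promoters of tested genes (1.27%). The sites are in capitals, and where 2 of them lie 4 bases apart on opposite strands they overlap and form 1 run of capitals. Mcm6 (chr1:128359706-128359955, minus strand) holds 3 sites, Mcm5 (chr8:75109259-75109508, plus strand) 2 and Orc1 (chr4:108579204-108579453, plus strand) 1, and the other gene is Pola1 (log2 change -0.44 ± 0.081). These matches describe the letters in the window and show no binding.
Mcm6: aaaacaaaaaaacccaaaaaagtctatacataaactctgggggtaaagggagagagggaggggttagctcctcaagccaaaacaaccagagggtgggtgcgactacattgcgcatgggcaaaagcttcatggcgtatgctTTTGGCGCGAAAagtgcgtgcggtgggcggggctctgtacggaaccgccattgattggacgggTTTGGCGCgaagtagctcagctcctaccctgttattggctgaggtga
Mcm5: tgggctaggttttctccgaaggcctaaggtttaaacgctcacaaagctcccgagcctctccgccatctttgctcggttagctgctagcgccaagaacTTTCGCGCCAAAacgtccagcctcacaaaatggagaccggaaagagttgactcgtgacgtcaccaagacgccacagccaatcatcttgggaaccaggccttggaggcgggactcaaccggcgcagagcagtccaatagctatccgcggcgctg
Orc1: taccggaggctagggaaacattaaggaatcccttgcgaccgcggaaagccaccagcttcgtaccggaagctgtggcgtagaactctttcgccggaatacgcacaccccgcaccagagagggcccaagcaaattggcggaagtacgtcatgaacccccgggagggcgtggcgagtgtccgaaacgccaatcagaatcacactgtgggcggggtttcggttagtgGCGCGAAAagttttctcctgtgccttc
The Myc E-box CACGTG was searched in the same way and was in 0 of the 11 matched promoters of the ribosome biogenesis list, against 920 of the 11202 (8.21%), which says only that these letters are not in this window.

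Targets of p53, the DNA damage regulator, were mostly lower. Of 18 genes 10 fell, 1 rose and 7 were not called, 61.1% called against 26.1% of all genes (median -0.50, from -0.54 to -0.36 under the other settings). Mdm2, the ubiquitin ligase that removes p53, stood at 109.8 and 93.1 CPM untreated, 169 and 105 CPM at 24 h and 98.1 and 68.9 CPM at 48 h. Its 24 h values were the highest in each clone, and it fell by 0.70 ± 0.12 from there. Phlda3 ran likewise from 97.7 and 55.3 CPM untreated over 133 and 79.8 CPM to 75.5 and 52.5 CPM (log2 change -0.71 ± 0.10). The kinase gene Plk2 fell by 1.74 ± 0.38, to 160.3 and 80.9 CPM. Sesn1 was the exception and rose from 63.4 and 66.5 CPM to 106 and 133 CPM (log2 change 0.88 ± 0.14), while Sesn2 fell by 0.55 ± 0.10. Ccng1 (-0.18), Trp53inp1 (0.051) and Bbc3 (-0.062) were not called.

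Of 12 targets of NRF2, the antioxidant regulator, 5 fell and 3 rose (66.7% called against 26.1% of all genes). Srxn1 (sulfiredoxin) went from 39.9 and 28.2 CPM untreated to 78.3 and 44.3 CPM at 24 h and 39.1 and 30.6 CPM at 48 h, so that 24 h was its highest time in both clones (log2 change -0.77 ± 0.14 from there). Txnrd1 fell by 0.92 ± 0.16 and Hmox1 fell by 0.72 ± 0.13, whereas Nqo1 rose by 0.51 ± 0.14 and Cat (catalase) by 0.42 ± 0.10. The cholesterol and fatty acid list had 9 of 18 genes lower and 0 higher, 50% called against 26.1% of all genes (median -0.29). Fasn, fatty acid synthase, went from 636 and 1142 CPM to 453 and 664 CPM. It was lower within each clone (log2 change -0.63 ± 0.12), and the times overlapped between the clones, of which clone 31 had the higher level at each time. Hmgcs1 (0.39) and Scd2 (0.47) lay above 0 and were not called.

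Among the genes that rose were Sox and other progenitor factors. Of 18 tested NPC identity genes 8 rose and 1 fell, 50% called against 26.1% of all genes. The median was 0.46 (clone 30 gave 0.38 and clone 31 gave 0.56), and 0.29 without the 48 h library of clone 31. Sox2, a factor that holds neural stem cells undifferentiated, stood at 194 and 237 CPM at 24 h and 339 and 472 CPM at 48 h, with 199.9 and 192 CPM untreated. Both 48 h libraries were above the other 4, and it rose by 0.90 ± 0.14 (adjusted p = 0.0168). Sox3, its relative on the X chromosome, went from 64.7 and 52.5 CPM to 128 and 134 CPM, Sox21 from 104 and 93.4 CPM to 204 and 214 CPM and Sox9 from 144 and 138 CPM to 233 and 303 CPM. Pax6, a factor of the embryonic neural epithelium, rose by 0.80 ± 0.12. Nes, which encodes the progenitor filament nestin, fell from 1895 and 1484 CPM to 1136 and 648 CPM (log2 change -0.95 ± 0.20), and its 48 h values lay below both untreated values (1289 and 1275 CPM). Olig1 (0.18), Olig2 (-0.37) and Vim (0.22) were not called. Hmga2, a chromatin protein of young stem cells, had -1.43 (64.8 and 83.1 CPM against 37.6 and 16.7 CPM, adjusted p = 0.0618).

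Of 8 POU class III and NFI factors 3 rose and 2 fell (62.5% called against 26.1% of all genes). Nfix (log2 change 0.63 ± 0.11), Nfib (log2 change 0.54 ± 0.12) and Nfia (log2 change 0.35 ± 0.087), linked to glial differentiation and stem cell quiescence, rose and Nfic fell (log2 change -0.58 ± 0.083). Pou3f1 went from 115 and 78.5 CPM to 29.1 and 5.42 CPM (log2 change -2.67 ± 0.55), the 48 h values being the lowest of the 6. Its relatives Pou3f2 (0.53, adjusted p = 0.0617), Pou3f3 (-0.14) and Pou3f4 (0.57, adjusted p = 0.0519) were not called.

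Notch pathway genes rose more often than they fell, with 9 of 21 higher, 1 lower and 11 not called, 47.6% called against 26.1% of all genes. The median was 0.52 (clone 30 gave 0.24 and clone 31 gave 0.58). Leaving out clone 31 at 48 h lowered it to 0.25. Of the ligands, Dll1 went from 76.1 and 48.8 CPM to 202 and 217 CPM (log2 change 1.82 ± 0.32) and Dll3 from 32.8 and 21.2 CPM to 64.5 and 53.8 CPM (log2 change 1.17 ± 0.22), while Jag2, at 2.08 CPM or less throughout, fell (log2 change -1.38 ± 0.33) and Jag1 had -0.39 (adjusted p = 0.0701). The receptor gene Notch1 rose from 453 and 521 CPM to 639 and 884 CPM (log2 change 0.64 ± 0.16), and Notch2 (0.30, adjusted p = 0.0602) and Notch3 (0.28) did not pass. Of the targets, Hes5, a repressor that is a main output of Notch in NPCs, went from 4.8 and 2.8 CPM to 32.6 and 44.2 CPM. Its 48 h values were the highest of the 6 libraries (untreated 7.99 and 0.775 CPM), and it rose by 3.51 ± 0.77 (adjusted p = 0.0275). Hey1 went from 36.8 and 36.3 CPM to 79.2 and 104 CPM, Hey2 from 1.25 and 0.877 CPM to 3.98 and 4.9 CPM, and the feedback gene Nrarp from 19.4 and 10.6 CPM to 35.9 and 29 CPM. Hes1, a target that other signals also drive, was not called (0.25, adjusted p = 0.262), and neither was the DNA-binding partner Rbpj (0.21).

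The Hes5 promoter is shown because it holds 2 sites for RBPJ, the factor through which Notch acts. The letters GTGGGAA were searched on both strands in the 250 bases before the RefSeq start site (GRCm38.p6). They were found in 3 of 16 matched promoters of the Notch list, Hes5, Hey2 and Lfng (-0.074, not called), a share of 18.8% against 608 of 11202 promoters of tested genes (5.43%). The Hes5 window (chr4:154960673-154960922, plus strand) has the sites in capitals, beginning 226 and 83 bases before the start.
Hes5: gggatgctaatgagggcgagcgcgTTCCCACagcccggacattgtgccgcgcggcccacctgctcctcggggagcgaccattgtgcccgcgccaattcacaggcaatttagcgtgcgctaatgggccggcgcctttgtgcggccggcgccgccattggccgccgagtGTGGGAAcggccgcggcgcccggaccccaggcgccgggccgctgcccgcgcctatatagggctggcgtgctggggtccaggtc

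Proneural factors had 3 of 10 tested genes higher and 1 lower, 40% called against 26.1% of all genes (median 0.34). Myt1 rose from 2.48 and 3.15 CPM to 10.2 and 8.33 CPM (log2 change 1.71 ± 0.21), and Neurog2 had 58 counts at 48 h against 2 at 24 h over both clones, a ratio per total count of 41.8 (95% exact interval 11.1 to 354, counting error only). Neurod1, a neuronal differentiation factor, fell within each clone from 27.8 and 2.75 CPM to 12.9 and 1.54 CPM (log2 change -0.99 ± 0.20), and the clones differed more than the times.

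BMP and Id genes had 4 of 17 tested members higher and 2 lower, 35.3% called against 26.1% of all genes. Id4, an inhibitor of basic helix-loop-helix factors, went from 6.83 and 0.451 CPM to 50.4 and 9.15 CPM, with 12.4 and 0.55 CPM untreated. Its increase was 3.48 ± 0.46 (adjusted p = 0.0162) over clones that differ in level at every time. Id2 rose by 0.55 ± 0.13, while Id1 (-0.18) and Id3 (0.035) were not called. The receptor gene Bmpr1b rose from 16 and 10.5 CPM to 39.7 and 29.3 CPM (log2 change 1.40 ± 0.14), and Bmp7 (log2 change -0.89 ± 0.16) and the antagonist gene Fst (log2 change -0.94 ± 0.18) fell.

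The Wnt list had 6 of 15 higher and 1 lower, 46.7% called against 26.1% of all genes (median 0.51). Draxin, an axon guidance gene whose product also opposes Wnt, stood at 20.8 and 29.4 CPM untreated, 2.45 and 13.1 CPM at 24 h and 26.2 and 164 CPM at 48 h. Its 24 h values were the lowest in each clone, and at 48 h clone 30 was near its untreated level while clone 31 was far above. Nkd1, a Wnt feedback gene, rose from 22.3 and 34.5 CPM to 56.7 and 131 CPM and Axin2, a Wnt target, by 0.38 ± 0.10, whereas Tcf7 fell by 1.23 ± 0.22. Of 10 tested hedgehog genes 1 rose and 1 fell (20% called against 26.1% of all genes): Ptch1, the receptor that is also a target, went from 111 and 141 CPM to 303 and 549 CPM (log2 change 1.73 ± 0.26), the coreceptor gene Cdon from 181 and 123 CPM to 81.5 and 50.7 CPM (log2 change -1.21 ± 0.15), and Gli1 was too low to test. Of 10 tested YAP and TEAD targets 3 rose, among them Amotl2 (log2 change 1.80 ± 0.36), and 3 fell, among them Ccn2 (log2 change -1.88 ± 0.41). That is 60% called against 26.1% of all genes.

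Glial markers were among the genes that rose. Of 17 tested astrocyte markers 11 rose and 0 fell, 64.7% called against 26.1% of all genes in either direction and 12.3% higher. The median was 0.97 (clone 30 gave 0.68 and clone 31 gave 1.25), and 0.62 without the 48 h library of clone 31. Ndrg2 went from 56.8 and 37.9 CPM to 289 and 347 CPM (log2 change 2.84 ± 0.44), and its 48 h values were above all other libraries (untreated 122 and 38.1 CPM). Aqp4, the astrocyte water channel, went from 3.13 and 1.21 CPM to 17.3 and 20.8 CPM, the glutamate transporter gene Slc1a2 from 92.6 and 29.7 CPM to 168 and 112 CPM and Aldoc from 253 and 329 CPM to 480.3 and 703 CPM. S100b rose by 0.96 ± 0.18 and Sparcl1 by 0.95 ± 0.18. The defining filament gene Gfap rose by 1.91 ± 0.27 but stayed low, at 0.7 and 0.261 CPM at 24 h and 2.72 and 0.942 CPM at 48 h, and Gjb6 had 0 counts in every library. Gja1 (0.30, adjusted p = 0.0535), Aldh1l1 (0.63, adjusted p = 0.0625) and Slc1a3 (0.39) did not pass.

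Of 14 tested oligodendrocyte lineage markers 7 rose and 0 fell, 50% called against 26.1% of all genes in either direction and 12.3% higher. Their median was 1.06 (clone 30 gave 0.67 and clone 31 gave 1.26). The median was 0.23 with a filter at 1 CPM, 0.21 with the 4 auxin libraries alone, 0.68 without the 48 h library of clone 31 and 1.97 with no filter. Cnp, an enzyme gene of myelin-forming cells, went from 72.3 and 84.5 CPM to 239 and 459 CPM (log2 change 2.13 ± 0.35), 48 h being the highest time in both clones. The precursor receptor gene Pdgfra went from 0.375 and 1.21 CPM to 2.65 and 4.52 CPM. Others that rose were low, with Gpr17 at 0.1 and 0.569 CPM at 24 h and 2.2 and 4.18 CPM at 48 h, and Mbp, a main myelin gene, at 0.15 and 0.261 CPM and then 0.356 and 1.47 CPM. Sox10, the factor that defines the lineage, did not exceed 0.188 CPM, and Mag and Mog did not exceed 0.0647 CPM. The summed level of the list was 3065 and 3126 CPM at 24 h and 3728 and 3434 CPM at 48 h, most of it from Olig1 and Olig2.

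Neuron markers had 1 of 15 tested genes higher and 2 lower, 3 called of 15 against 26.1% over all genes (median 0.19, between -0.09 and 0.38 under the other settings). Dcx, a microtubule gene of young neurons, rose from 2.08 and 2.94 CPM to 4.85 and 8.78 CPM (log2 change 1.41 ± 0.20), Ina fell by 0.85 ± 0.21, and Tubb3 (0.44) and Map2 (0.31) were not called. Synapse and adhesion genes went both ways, with 5 of 17 higher and 3 lower (47.1% called against 26.1% of all genes). Lrrc4c stood at 35 and 13.1 CPM untreated, 11.9 and 3.46 CPM at 24 h and 35.2 and 12.9 CPM at 48 h, so that it rose by 1.72 ± 0.14 to near its untreated level in each clone. Tnr (tenascin R), of the matrix list, ran the same course with 8.95 and 11.7 CPM untreated, 2.93 and 3.32 CPM at 24 h and 8.02 and 12.5 CPM at 48 h (log2 change 1.69 ± 0.18). Negr1 did not, standing at 23.1 and 23.8 CPM untreated, 10.7 and 9.79 CPM at 24 h and 8.83 and 8.33 CPM at 48 h (-0.26, adjusted p = 0.18). Nptx1, which clusters glutamate receptors, fell from 439.6 and 626 CPM to 79.8 and 129 CPM (log2 change -2.38 ± 0.14), and Camk2a, a synaptic kinase gene, rose from 7.68 and 3.87 CPM to 31.8 and 39.1 CPM. Of the matrix genes 4 of 17 rose and 1 fell, a share called of 29.4%, near the 26.1% of all genes. The 1 that fell was Tnc (tenascin C), from 2646 and 2227 CPM to 959.6 and 1309.6 CPM (log2 change -1.11 ± 0.19). Of 52 tested clustered protocadherin genes, a family chosen after its values were seen, 16 rose and 0 fell (median 0.39), 30.8% called against 26.1% of all genes in either direction and 12.3% higher, with Pcdha2 among them (adjusted p = 0.0258). Genes of the Pcdha and of the Pcdhg cluster share exons within their cluster, so reads could be split between them, which does not apply to the Pcdhb genes.

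Lysosome and autophagy genes had 4 of 18 higher and 0 lower (median 0.32, and 0.155 without the 48 h library of clone 31). Their share called, 22.2%, stands beside 26.1% of all genes called in either direction and 12.3% called higher. Retreg1, a receptor for autophagy of the endoplasmic reticulum, went from 3.93 and 4.25 CPM to 36.6 and 59 CPM (log2 change 3.56 ± 0.49), the largest rise of those with at least 5 CPM on average. Npc1, a cholesterol transporter of the lysosome, rose by 0.82 ± 0.12 and Map1lc3b, a marker of autophagosomes, by 0.55 ± 0.11, while Tfeb (-0.23) and Sqstm1 (0.13) were not called. Of 11 tested interferon response genes 4 rose and 0 fell (36.4% called against 26.1% of all genes): the RNA sensor gene Ifih1 went from 2.33 and 1.66 CPM to 5.08 and 6.18 CPM, and Rsad2 from 3.33 and 1.75 CPM to 5.85 and 5.05 CPM. Of the aryl hydrocarbon receptor list 2 of 4 tested rose, Cyp1b1 (log2 change 0.71 ± 0.15) and Nqo1, while the classic target Cyp1a1 did not exceed 0.190 CPM. The share called was 50% against 26.1% of all genes, and Nqo1 is also counted among the NRF2 targets.

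Further genes among the 20 largest rises or falls belong to none of these lists. Txnip, which restrains glucose uptake and binds thioredoxin, went from 27 and 22.7 CPM to 137 and 294 CPM, with 59.1 and 30.7 CPM untreated (log2 change 3.12 ± 0.48). Bmf, a cell death gene of the Bcl-2 family, went from 7.1 and 21 CPM to 44.3 and 151 CPM (log2 change 2.75 ± 0.39), and the long noncoding RNA gene Miat from 41.9 and 9.06 CPM to 249 and 93.8 CPM (adjusted p = 0.0162). In all 3 both 48 h values lay above both 24 h values, and in Miat clone 30 was the higher at each time. Tmem100 (log2 change 2.97 ± 0.56), Mmd2 (log2 change 3.31 ± 0.78), the retinal reductase gene Dhrs3 (log2 change 2.79 ± 0.30), the chemokine scavenger gene Ackr3 (log2 change 2.58 ± 0.38) and the kinase gene Prkcq (log2 change 2.44 ± 0.27) also rose. Among the falls Akap12, a kinase scaffold gene, went from 187 and 285 CPM to 43.7 and 40 CPM (log2 change -2.41 ± 0.39), the receptor gene Epha2 from 13.3 and 8.11 CPM to 3.01 and 1.28 CPM (log2 change -2.32 ± 0.40), and Pprc1, a coactivator of mitochondrial genes, from 86.7 and 105 CPM to 29 and 14.3 CPM (log2 change -2.14 ± 0.38). Tmem158 (log2 change -2.24 ± 0.30), Inka1 (log2 change -2.41 ± 0.45), Rapgef5 (log2 change -2.26 ± 0.47) and Tnfrsf12a (log2 change -2.17 ± 0.35) fell too.

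**Figure D4:**
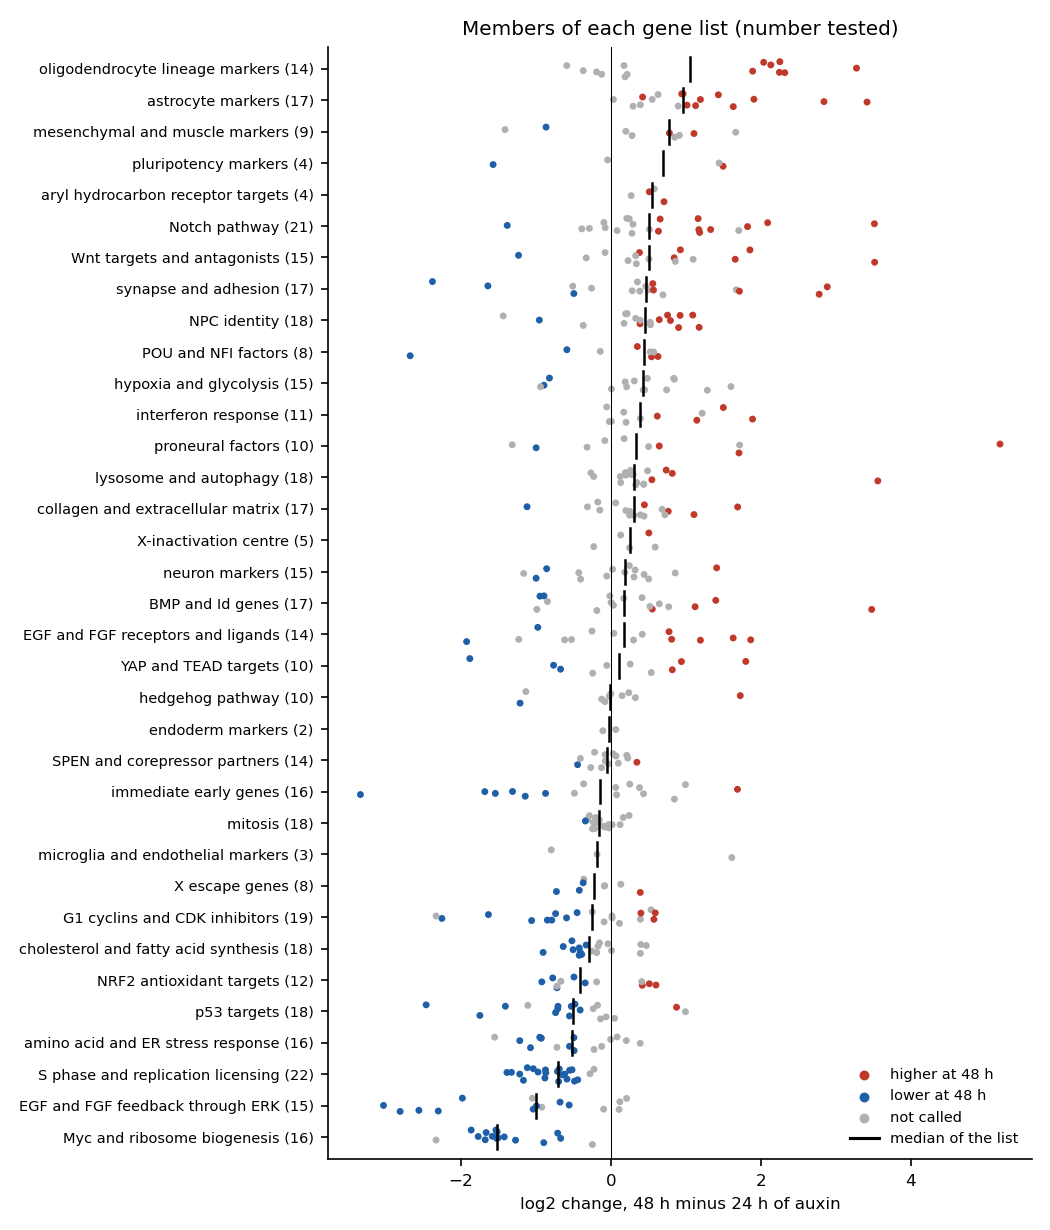
Each point is a tested member of 1 of 35 gene lists (y axis, ordered by median), placed by its log2 change from 24 h to 48 h of auxin (x axis) and coloured by the call, with a black bar at the list's median. The lowest medians are those of ribosome biogenesis (-1.52) and of EGF and FGF feedback (-0.99), and the highest are those of the oligodendrocyte lineage (1.06) and of astrocyte markers (0.97), an order that turns with a filter at 1 CPM (0.23 and 0.98).

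Xist (chrX:103460375-103483217, mm10), the RNA that coats the inactive X chromosome, stood at 1029 and 1169 CPM at 24 h and 1334 and 1821 CPM at 48 h, with 705 and 862 CPM untreated, and rose by 0.51 ± 0.12 (adjusted p = 0.0326). The levels were ordered by time in both clones. Of 554 tested X-linked genes 65 were higher and 53 lower (21.3% called, median 0.08), and of 15450 tested autosomal genes 1896 were higher and 2171 lower (26.3%, median 0.03). Of 8 genes that escape X inactivation 3 fell (Utp14a, Pbdc1 and Eif2s3x, with log2 changes -0.72 ± 0.11, -0.42 ± 0.086 and -0.37 ± 0.083) and 1 rose (Kdm6a, log2 change 0.39 ± 0.089), and Kdm5c (-0.079) and Ddx3x (-0.36) were not called. The share called of these 8 genes was 50%, against 26.1% of all genes. The counts hold both alleles together, so the active and the inactive X were not separated. Spen RNA, which does not measure the degron's effect on the protein, stood at 174 and 218 CPM at 24 h and 199.7 and 259 CPM at 48 h (0.23, adjusted p = 0.0948). Its untreated levels were lower, at 92.4 and 116 CPM. Of 14 genes for SPEN and its corepressor partners 1 rose (Tbl1x, log2 change 0.35 ± 0.10) and 1 fell (Ctbp2, log2 change -0.44 ± 0.086), and Ncor1 (-0.03) and Hdac3 (0.10) were not called. The list's share called, 14.3%, lay below the 26.1% of all genes.

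The median change of the hypoxia and glycolysis genes had opposite signs in the clones, a difference that 1 library per clone and time cannot test. Of 15 tested 2 fell, Pfkfb3 (log2 change -0.82 ± 0.12) and Adm (log2 change -0.89 ± 0.20), and 0 rose, and the list's median was -0.37 in clone 30 and 0.85 in clone 31. Pdk1, which diverts pyruvate from mitochondria, stood at 24.1 and 55.8 CPM at 24 h and 30.2 and 286 CPM at 48 h, so that the 48 h library of clone 31 was above all other libraries (untreated 78.5 and 84.2 CPM). Bnip3, a mitophagy receptor gene, and Pgk1, a glycolytic enzyme gene, were likewise highest in that library. Bnip3 went from 37.3 and 63.3 CPM at 24 h to 39.1 and 260.0 CPM at 48 h, and Pgk1 from 270.3 and 377 CPM to 292 and 992 CPM. Pdk1, Bnip3 and Pgk1 thus lay higher at 48 h in both clones, and by more in clone 31, whose 48 h library held the highest levels. The list's part in the other results was not tested, and without that library the blocked fit called 4279 genes, of which 3540 were among the 4185, and DESeq2 with the block called 1864 against 4271 with all libraries.

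Markers of cells outside the neural lineage stayed low or did not move together. Of 10 microglia and endothelial markers 3 were tested and 0 called in edgeR (0 at an unadjusted p under 0.05, 0 in DESeq2 with the block), and the list's summed level was 9 and 3.82 CPM at 24 h and 6.98 and 3.8 CPM at 48 h, with Aif1 at 0. Of 8 endoderm markers 2 were tested and 0 called (0 at an unadjusted p under 0.05, 0 in DESeq2 with the block), with Sox17 at 0. Of 9 tested mesenchymal and muscle markers 2 rose (Col1a1 and Prrx1, log2 changes 1.11 ± 0.21 and 0.78 ± 0.18) and 1 fell (Twist1, log2 change -0.86 ± 0.20), 33.3% called against 26.1% of all genes. Of 4 tested pluripotency markers 1 rose and 1 fell, 50% called against 26.1% of all genes (median 0.70, between -0.155 and 1.45 under the other settings). Pou5f1, Zfp42 and Dppa5a had 0 counts in every library, and Nanog, at 1 and 1.16 CPM at 24 h and 2.52 and 3.65 CPM at 48 h, rose (adjusted p = 0.0164). Esrrb, at 5.88 and 6.33 CPM at 24 h and 2.97 and 1.21 CPM at 48 h, fell by 1.57 ± 0.37 (adjusted p = 0.0319). Nanog has pseudogenes between which reads could be split.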

How the data were processed

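RNA of the 6 libraries was sequenced as read pairs of 100 bases. Each deposited file holds unnormalized counts of read pairs over the exons of each Ensembl 92 gene (GRCm38/mm10), counted by the authors with featureCounts 1.6.1 and its reverse strand setting, per the file headers, from alignments whose names mark duplicates as removed. Exon lengths and other annotation columns of the deposited files were not used. Of 53801 genes 53620 matched a symbol and 181 did not, and every library had 0 mitochondrial counts.

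Genes were tested with edgeR 4.0.16 (quasi-likelihood, robust, 2-sided, TMM, filterByExpr by group) on all 6 libraries with group and clone as terms, the untreated libraries sharing in the estimate of spread, and p-values were adjusted by the Benjamini-Hochberg method over 16007 genes. Libraries of a clone carry the same clone number in their titles, and their deviations from group means correlated at 0.58 to 0.80 across genes, so the clone pairs them. The common biological coefficient of variation was 0.121 with the block. A standard error is the log2 change over the root of its F statistic, and changes within a clone use a prior count of 2. The script was tested on simulated data. Alternatives were other scalings and filters, DESeq2 1.42.0, limma voom, no block, and leaving out each library.

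The members and the 35 gene lists (525 of 528 entries matched) were chosen with earlier results of these data known. Genes named are the 20 largest rises and falls with at least 5 CPM on average and, in each list, at most 6 members with the smallest p, of which some are not reported here, and other genes of the lists and families, chosen after their values were seen.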

Additional observations from a re-analysis of the deposited data

Results flagged for a closer look

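Some results had opposite signs in the clones, with n = 1 library per time and clone, so the difference between the clones was not tested. Given below is the log2 change in clone 31 minus that in clone 30. Of the list medians, that of hypoxia and glycolysis differed by 1.22 (-0.37 in clone 30 and 0.85 in clone 31), that of neuron markers by 0.44, of YAP and TEAD targets by 0.31, of endoderm markers by 0.26 and of hedgehog genes by 0.067.

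Of the genes named, none of those with opposite signs was called. The immediate early genes Fos, Nr4a1 and Egr3 differed by 1.12, -1.27 and -1.16, so Fos was the one of the 3 that was higher at 48 h in clone 31. The neuronal tubulin gene Tubb3 differed by 0.84, and the ERK-responsive gene Phlda1 by -0.66. In the Notch list Hes1 differed by 0.59, Rbpj by 0.44 and Lfng by -0.64. The p53 targets Trp53inp1, Ccng1 and Bbc3 differed by 0.48, 0.46 and 0.29. The remaining differences were -0.50 for Erbb2, -0.32 for Pou3f3, 0.20 for Mki67, 0.092 for Ncor1, -0.076 for Id3 and 0.068 for Psat1.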

How the results depend on the processing

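Counts of called genes between 3971 and 4387 were found with DESeq2's size factors, upper-quartile scaling, total counts, the 4 auxin libraries, a filter at 1 CPM, no filter, DESeq2 with the block and voom, against 4185, and the genes shared with the 4185 numbered 3687 to 4180, all in the same direction. Without the replicate block edgeR called 0 genes (0 higher, 0 lower) and DESeq2 2530 (1001 higher). Leaving out 1 library with the block kept gave 0 to 7449 calls (0 to 3969 higher and 0 to 3480 lower). The count was lowest without the 24 h library of clone 30 and highest without the 48 h library of clone 30. A fit that lacks an auxin library has both auxin times in only 1 clone, although libraries of both clones enter it. The same omissions among the auxin libraries in DESeq2 with the block, chosen after the data were seen, gave 557 to 4402 calls (285 to 1965 higher and 272 to 2437 lower), among them 730 (322 higher, 408 lower) and 557 with the 24 h library of clone 30 or 31 left out and 1864 (684 higher, 1180 lower) with clone 31 left out at 48 h. In it the ribosomal proteins had 7 members higher without the 48 h library of clone 30. The cause of these differences was not tested. Of the named genes' changes only Egr3 turned with a call, and its change ran from -0.72 to 0.69 with 1 library left out, the lowest without the 48 h library of clone 30. The list medians that changed sign under at least 1 of 20 alternatives were those of endoderm, hedgehog, immediate early, neuron, YAP and TEAD, hypoxia, pluripotency and SPEN partner genes and of the ribosomal proteins. The 48 h libraries hold fewer counts, which limits genes near the floor.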
